A study of Mesocricetus auratus with 64 samples.

Results

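The 8 genes described here are the core of Leydig cell steroid synthesis and its control: Scarb1, Star, Cyp11a1, Cyp17a1, Hsd17b3, Lhcgr, Nr5a1 and Insl3. The rule names them and uses no measured value, but they were chosen with earlier results of these data known. They are 8 of the 32303 gene rows of each count file. A row of the same name existed for 7 of them, and Cyp11a1 was found as the row LOC101827747, which RefSeq lists with that synonym. The study profiled RNA of golden hamsters (Mesocricetus auratus, breed Syrian) deficient for Pld6, a mitochondrial outer membrane protein that takes part in making piRNAs in germ cells. Whole testes of 3-week-old males (21 d.p.p.) gave 3 Pld6 KO and 3 wild type (WT) long RNA libraries, which carry the comparison below, and the series also holds KO and WT oocytes and embryos. The labels state neither which stretch of Pld6 was altered nor any other allele or agent, and the KO and WT testis groups differ in genotype alone as far as they say. Nothing in them says that the 3 libraries of a genotype came from separate animals, so p-values measure the spread between these libraries, which may be technical.

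Leydig cells lie between the seminiferous tubules and make androgens from cholesterol when luteinizing hormone (LH) binds its receptor. Scarb1 takes up cholesterol from lipoproteins and Star moves it into the mitochondrion, where Cyp11a1 cuts it to pregnenolone. Cyp17a1 and a 3β-hydroxysteroid dehydrogenase carry the steroid on to androstenedione, and Hsd17b3 reduces androstenedione to testosterone. Lhcgr is the LH receptor, Nr5a1 (SF-1) the nuclear receptor that drives most of these genes, and Insl3 a peptide hormone of Leydig cells that guides testis descent. Nr5a1 and Scarb1 are made in Sertoli cells too, the somatic cells inside the tubules that support germ cells.

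The 6 testis libraries held 31572737 to 34257661 gene counts each, on 21266 to 22912 genes. Pld6 itself had 3.22, 2.63 and 5.32 CPM (the count as a share of the library, with library sizes scaled by TMM) in KO libraries 1 to 3, against 42.2, 34.5 and 50.7 CPM in WT libraries 1 to 3, a log2 change of −3.51 (SE 0.32, edgeR adjusted p = 2.5e-05). Spearman correlations across genes were 0.959 to 0.982 among KO libraries, 0.985 to 0.992 among WT libraries and 0.795 to 0.854 between genotypes. KO replicate 3 stood furthest from its group, at 0.959 and 0.971 against the other KO libraries, and values of the 8 genes that it moves are given with and without it. The germ cell markers summed to 67.6 to 127 CPM in KO libraries, against 2221 to 3147 CPM in WT libraries, and 13 of 15 fell, none rose and 2 were not called.

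Of the 8 Leydig cell genes, 7 rose in KO testis and none fell, where 27.9% of the 18024 genes tested rose and 30.2% fell, 58.0% in either direction (edgeR quasi-likelihood test, Benjamini-Hochberg adjusted p under 0.05 over all genes tested). All 8 passed the filter on low counts. Since they were chosen with earlier results of these data known, their count beside the shares of all genes is a description only. Their median log2 change was 2.74, beside 0.03 over all genes tested. The same 7 had every KO library above every WT library, a pattern that 31.3% of all genes tested showed in that direction. Together the 8 genes took 0.355%, 0.350% and 0.308% of all counts in KO libraries 1 to 3, against 0.0615%, 0.0526% and 0.0582% in WT libraries 1 to 3. In whole tissue, a change in the number of Leydig cells and a change in RNA per cell cannot be told apart.

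**Figure D1:**
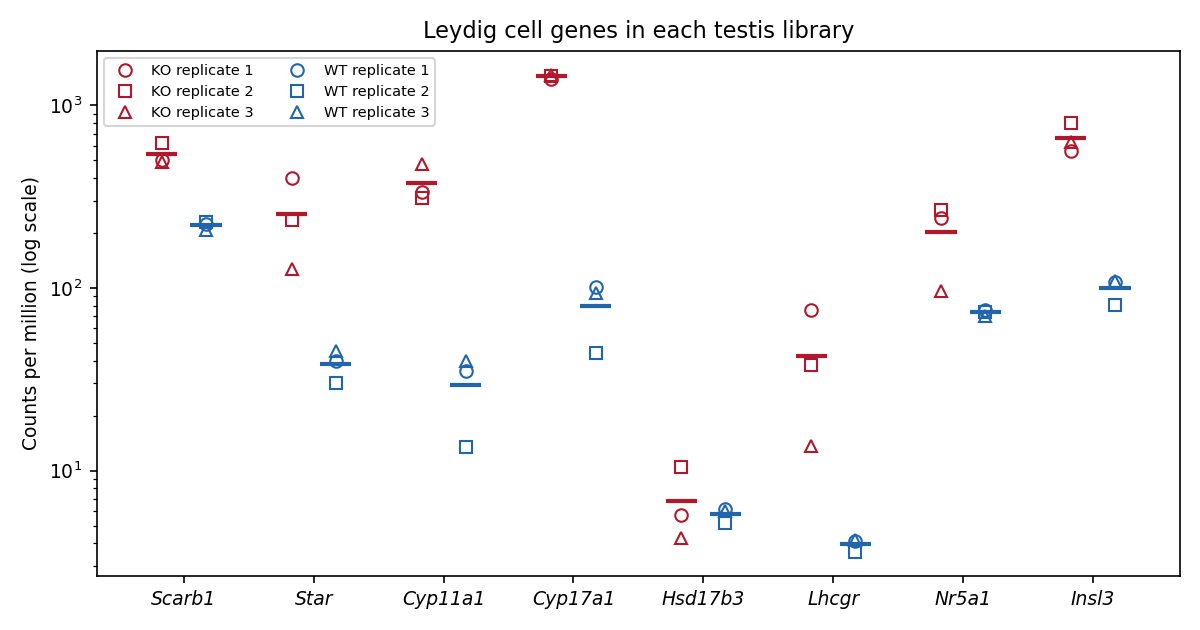
CPM (log scale) of each of the 8 genes in every testis library, with KO in red left of WT in blue, markers by replicate number and a bar at each group mean. KO and WT overlap only for Hsd17b3, while Cyp17a1 lies at 1401 to 1473 CPM in KO and 44.2 to 101 CPM in WT.

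On the side of cholesterol delivery, both genes rose. Scarb1, the lipoprotein receptor, had 504, 622 and 487 CPM in KO libraries 1 to 3, against 225, 229 and 207 CPM in WT libraries 1 to 3. The groups lay apart with little spread in either, and Scarb1 rose by a log2 change of 1.28 (SE 0.18, edgeR adjusted p = 0.000282), the smallest rise of the 7. Star, which carries cholesterol across the mitochondrial membranes in the step that limits the rate of synthesis, had 402, 237 and 128 CPM in KO libraries 1 to 3, against 39.7, 30.1 and 45.1 CPM in WT libraries 1 to 3. All KO libraries were above all WT libraries, but the KO libraries spread over 3.14-fold and KO replicate 3 was the lowest. Star rose by a log2 change of 2.74 (SE 0.38, edgeR adjusted p = 0.000298), and by 3.07 without KO replicate 3.

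Both cytochrome P450 enzymes rose. Cyp11a1, the side chain cleavage enzyme that commits cholesterol to steroids, had 334, 312 and 477 CPM in KO libraries 1 to 3, against 34.9, 13.5 and 39.6 CPM in WT libraries 1 to 3. The groups did not overlap, KO replicate 3 was the highest and WT replicate 2 was the lowest. Its log2 change was 3.67 (SE 0.40, edgeR adjusted p = 6.57e-05), the 81st largest rise among the genes tested, and 3.47 without KO replicate 3. Cyp17a1, the 17α-hydroxylase and 17,20-lyase that turns progestins into androgens, had 1401, 1453 and 1473 CPM in KO libraries 1 to 3, against 101, 44.2 and 94.0 CPM in WT libraries 1 to 3. The KO libraries were nearly level, within 1.05-fold, and WT replicate 2 was again the lowest. Cyp17a1 rose by a log2 change of 4.18 (18.1-fold, SE 0.32, edgeR adjusted p = 8.87e-06), the 43rd largest rise, and leaving out any 1 library kept it between 3.88 and 4.37.

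Hsd17b3, which makes testosterone from androstenedione, was the exception. It had 5.75, 10.5 and 4.26 CPM in KO libraries 1 to 3, from 184, 323 and 125 counts, against 6.13, 5.18 and 6.04 CPM in WT libraries 1 to 3, from 216, 193 and 209 counts. KO replicate 2 was above all WT libraries and KO replicate 3 below all of them. The log2 change was 0.24 (SE 0.36, edgeR adjusted p = 0.587), and it was −0.20 without KO replicate 2, so its direction is not settled by these libraries.

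The receptor, the nuclear receptor and the peptide all rose. Lhcgr had 75.9, 38.0 and 13.6 CPM in KO libraries 1 to 3, against 4.12, 3.59 and 4.16 CPM in WT libraries 1 to 3. Every KO library was above the WT libraries, but the KO values spread over 5.60-fold, the widest spread of the 8 genes, with KO replicate 1 highest and KO replicate 3 lowest. Lhcgr rose by a log2 change of 3.42 (SE 0.54, edgeR adjusted p = 0.000575), by 3.85 without KO replicate 3 and by 2.696 without KO replicate 1. Nr5a1 had 242, 266 and 96.9 CPM in KO libraries 1 to 3, against 75.5, 74.3 and 70.7 CPM in WT libraries 1 to 3. KO replicate 3 lay much closer to the WT libraries than to the other KO libraries. Nr5a1 rose by a log2 change of 1.46 (SE 0.33, edgeR adjusted p = 0.00443), and by 1.80 without that library. Insl3 had 564, 803 and 630 CPM in KO libraries 1 to 3, against 108, 81.0 and 109 CPM in WT libraries 1 to 3. The groups lay well apart and no library stood out, with a log2 change of 2.74 (SE 0.22, edgeR adjusted p = 1.09e-05).

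Measured library by library against the WT mean on a log2(CPM + 0.5) scale, the genes did not share 1 order of the KO libraries. KO replicate 1 had the largest difference for Star (3.39) and Lhcgr (4.10). KO replicate 2 had it for Scarb1 (1.49), Hsd17b3 (0.81), Nr5a1 (1.85) and Insl3 (3.02), and KO replicate 3 for Cyp11a1 (4.14) and Cyp17a1 (4.29). In KO replicate 3 the difference was 1.74 for Star, 1.66 for Lhcgr and 0.40 for Nr5a1. That library was the lowest KO library for Scarb1, Star, Hsd17b3, Lhcgr and Nr5a1, and the highest for Cyp11a1 and Cyp17a1.

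**Figure D2:**
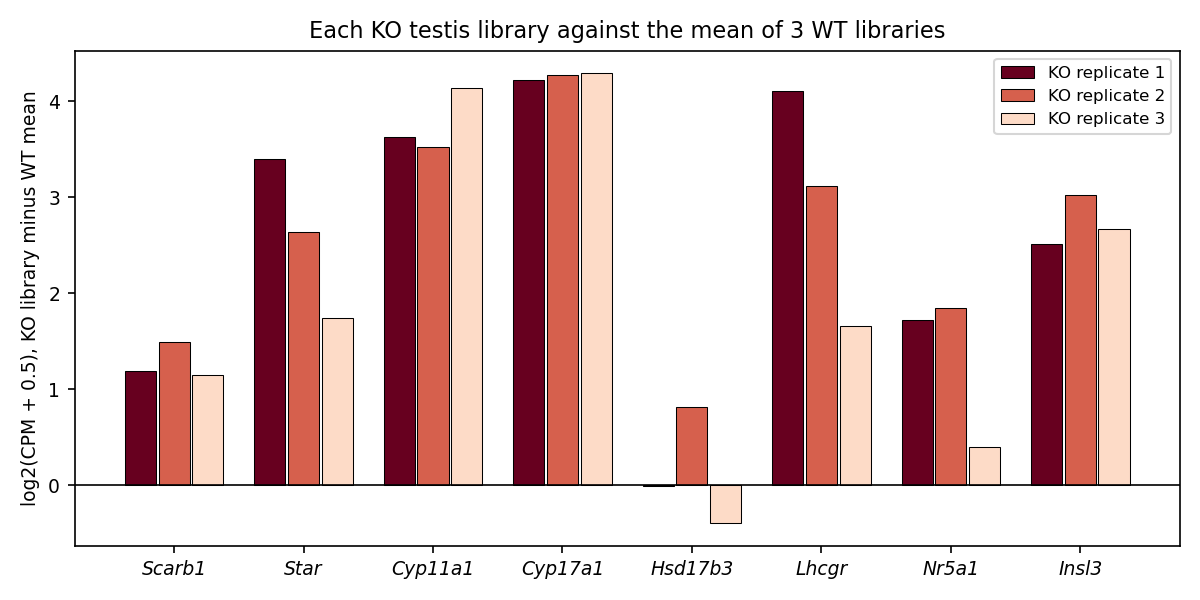
Difference of each KO library from the mean of the 3 WT libraries, in log2(CPM + 0.5), with 1 bar per KO library. Cyp17a1 is level across the 3 bars, while Lhcgr lies at 4.10 in KO replicate 1, 3.11 in KO replicate 2 and 1.66 in KO replicate 3.

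To compare the size of the rise between steps, the log2 ratio of a pair of genes was taken within each library (count + 0.5), which does not depend on scaling between libraries. The level of such a ratio also depends on gene length, so only its difference between genotypes is read. All 28 pairs of the 8 genes were compared by an exact two-sided permutation test over libraries, which with 3 against 3 cannot go below p = 0.10, so no pair could pass the threshold. Pairs that share a gene are not independent of each other. The KO and WT ratios did not overlap in 20 pairs and overlapped in 8, and the 20 pairs had an exact permutation p = 0.10 (0.14 after Benjamini-Hochberg adjustment over the 28).

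From uptake to transport, the ratio of Star over Scarb1 was −0.33, −1.39 and −1.93 in KO libraries 1 to 3, against −2.50, −2.93 and −2.20 in WT libraries 1 to 3. Star therefore had the larger rise by a log2 difference of 1.33 (2.51-fold), without overlap between genotypes (exact permutation p = 0.10), and by 0.88 without KO replicate 1. Scarb1 and Nr5a1 are made in Sertoli cells too, so ratios with either can also depend on the mix of cells in whole testis. From transport to side chain cleavage, Cyp11a1 over Star differed by 1.19, but the ratios overlapped (exact permutation p = 0.30) and the difference was 0.57 without KO replicate 3. Cyp17a1 over Cyp11a1 differed by 0.48, again with overlap (exact permutation p = 0.20), so the rises of these P450 genes were not told apart at this number of libraries. Across more than 1 step, Cyp17a1 over Star differed by 1.66, Cyp11a1 over Scarb1 by 2.51 and Cyp17a1 over Scarb1 by 2.99. Each was higher in KO without overlap (exact permutation p = 0.10). The ratio of the last step went the other way.

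Hsd17b3 over Cyp17a1 was −7.93, −7.11 and −8.43 in KO libraries 1 to 3, against −4.03, −3.09 and −3.96 in WT libraries 1 to 3. The difference was −4.13, a 17.5-fold lower ratio in KO, and every KO ratio was below every WT ratio (exact permutation p = 0.10). Leaving out any 1 library kept it between −4.48 and −3.82. Hsd17b3 was also lower relative to each of the other 6 genes without overlap, with log2 differences of −1.14 against Scarb1 and −3.65 against Cyp11a1. These ratios all share Hsd17b3, which was itself not called while the other genes rose, so they restate that contrast. Among the other pairs, Nr5a1 over Scarb1 differed by 0.05 (exact permutation p = 1.00) and Insl3 over Star by 0.14 (exact permutation p = 0.80), both with overlap. Nr5a1 over Lhcgr was lower in KO by a log2 difference of −1.78, without overlap.

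**Figure D3:**
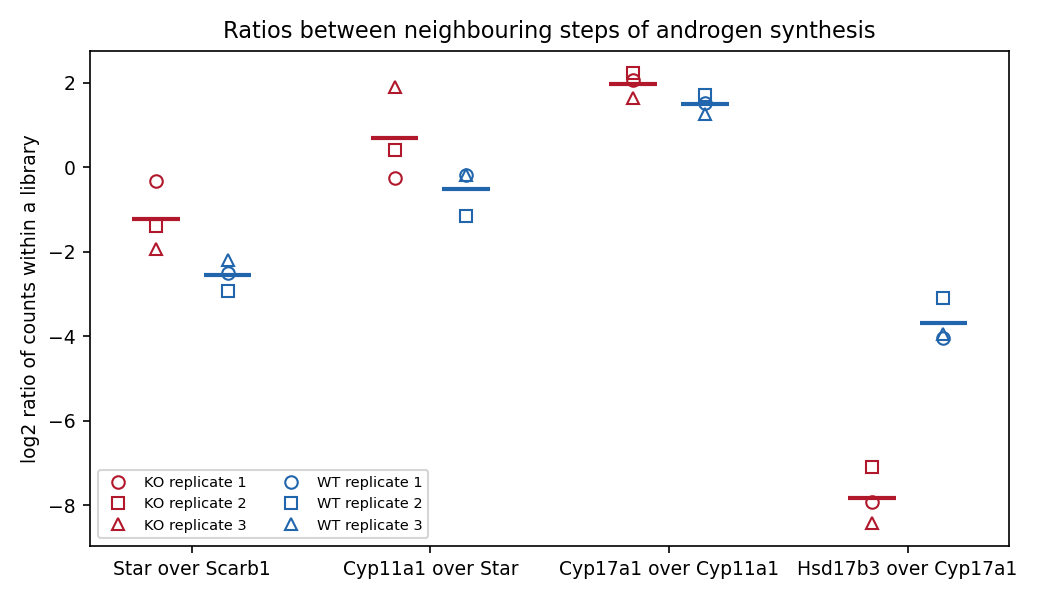
log2 ratio of counts within each library for the 4 neighbouring steps, KO in red left of WT in blue, with a bar at each group mean. The ratio of Hsd17b3 over Cyp17a1 lies between −8.43 and −7.11 in KO and between −4.03 and −3.09 in WT, and the ratios with Cyp11a1 overlap.

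CPM is a share of each library, and the germ cell markers took a far smaller share in KO than in WT. Libraries were therefore also scaled to the summed counts of the Sertoli cell markers, and to those of 4 somatic lists together (Sertoli, macrophage, peritubular and endothelial). Sertoli markers made up most of that joint sum, so both scalings are nearly the same scale and do not check each other. In WT libraries Sertoli markers summed to 8945 to 9552 CPM. The other lists summed there to 655 to 930 (peritubular), 28.6 to 48.7 (macrophage) and 43.0 to 54.7 CPM (endothelial). These scalings moved the median log2 change of all genes to −1.25 and −1.18, and the calls below are relative to those cells. Then 3.40% and 3.91% of all genes tested were called higher, and 61.6% and 59.8% lower. Under both, 5 of the 8 genes were still called higher in KO. Their log2 changes with Sertoli scaling were 2.91 for Cyp17a1 (7.51-fold, edgeR adjusted p = 2.42e-05), 2.43 for Cyp11a1, 2.14 for Lhcgr, 1.45 for Star and 1.45 for Insl3. Scarb1 was at −0.0075 (edgeR adjusted p = 0.974) and Nr5a1 at 0.13 (edgeR adjusted p = 0.718), so per Sertoli marker count neither was called. Hsd17b3 was called lower, at −1.10 with Sertoli scaling (edgeR adjusted p = 0.0138) and −1.03 with the 4 lists (edgeR adjusted p = 0.019).

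**Figure D4:**
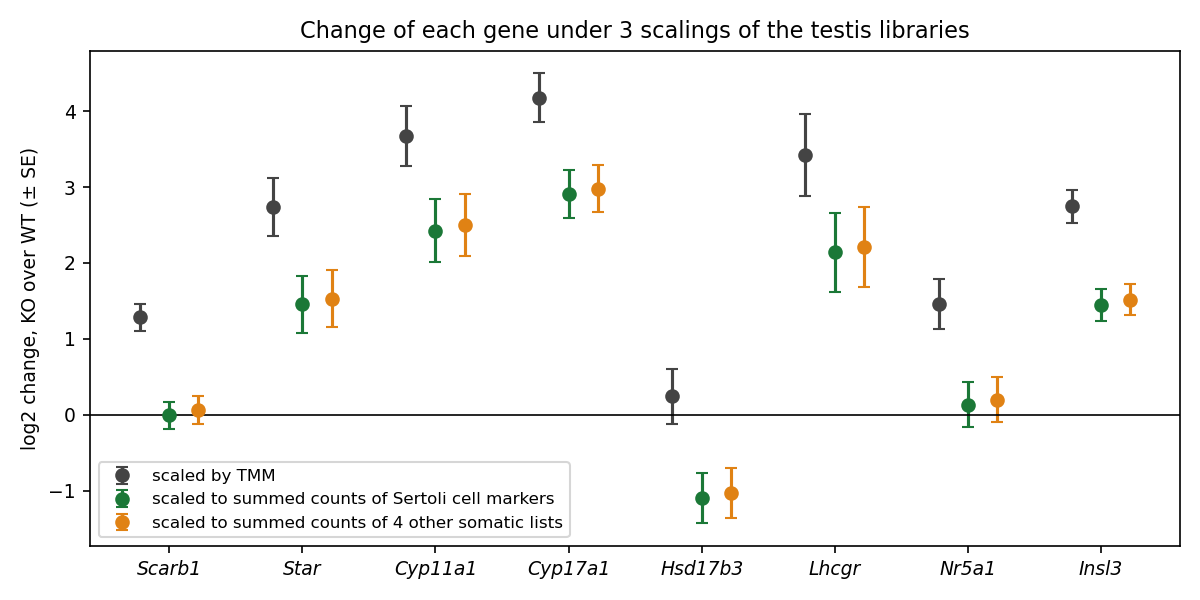
log2 change, KO over WT, of the 8 genes under 3 scalings of the testis libraries, with bars of ± 1 SE from edgeR. All points shift down under both marker scalings, where Cyp17a1 stays at 2.91 and 2.98, Scarb1 and Nr5a1 come to lie at 0.20 or less, and Hsd17b3 falls below 0.

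Among the other steroid enzymes and cofactors, 25 genes were listed, 14 had a row and 12 were tested, of which 8 rose and none fell. The median log2 change was 1.17, and their summed level was 1097 to 1317 CPM in KO libraries, against 494 to 510 CPM in WT libraries. With Sertoli scaling 1 was called higher and 4 lower. The counts of this list and of those below are to be read beside the shares of all genes tested. With TMM 27.9% of these rose and 30.2% fell, and with Sertoli scaling 3.40% were called higher and 61.6% lower. Of the 3β-hydroxysteroid dehydrogenases, which make the Δ4 steroids, Hsd3b1 (row LOC101842851, found by its RefSeq synonym) rose by 2.47 (SE 0.47, edgeR adjusted p = 0.00172). It had 6.68, 15.6 and 4.33 CPM in KO libraries 1 to 3, against 1.68, 1.53 and 1.59 CPM in WT libraries 1 to 3. Genes of this family are near copies, so how reads were split among them is uncertain, and the row found as Hsd3b3 was too low to test. Hsd3b7, a bile acid enzyme of that family, rose by 0.97, and its change was −0.32 with Sertoli scaling.

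The electron carriers of the mitochondrial P450 enzymes differed. Ferredoxin reductase, Fdxr, had 127 ± 20.9 CPM in KO and 37.8 ± 1.94 CPM in WT (SD, n = 3 each), a rise of 1.75 (edgeR adjusted p = 7.74e-05) that was 0.47 and not called with Sertoli scaling (edgeR adjusted p = 0.083). Ferredoxin, Fdx1, had 34.0 ± 2.63 CPM in KO and 31.9 ± 2.03 CPM in WT (SD, n = 3 each), with overlap and a log2 change of 0.09 (edgeR adjusted p = 0.702) that was −0.038 with library totals and −1.19 with Sertoli scaling. Among the 17β-hydroxysteroid dehydrogenases, Hsd17b10, a mitochondrial enzyme, rose by 1.79, Hsd17b12, also an enzyme of fatty acid elongation, by 1.00 (−0.24 with Sertoli scaling), and the scarce Hsd17b1 by 1.68 (edgeR adjusted p = 0.0337). The call of Hsd17b1 was lost with limma voom, with the replicate block and when any of 4 single libraries was left out. Hsd17b4, the peroxisomal member, had a log2 change of −0.38 and Hsd17b7, which acts in cholesterol synthesis, of −1.02, and neither was called. With Sertoli scaling both were called lower, at −1.68 and −2.31, and Hsd17b7 was also called lower without KO replicate 1 (−1.67, edgeR adjusted p = 0.015).

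Srd5a3, named for a 5α-reductase and acting in dolichol synthesis, rose by 1.34 (edgeR adjusted p = 0.000204). Srd5a1, the 5α-reductase that makes dihydrotestosterone, had 11.9 ± 3.2 CPM in KO and 9.22 ± 1.28 CPM in WT (SD, n = 3 each) and was not called, with a log2 change of 0.37 that was −0.93 and called lower with Sertoli scaling. Srd5a2 had no count in any of the 6 libraries, which allows 0.0876 to 0.095 CPM per library for 3 counts. Hsd11b1, which turns inactive glucocorticoid into the active form, had 166, 101 and 46.5 CPM in KO libraries 1 to 3, against 45.8, 21.6 and 43.0 CPM in WT libraries 1 to 3. KO replicate 1 was the highest and KO replicate 3 lay just above the WT libraries, with a rise of 1.50 (edgeR adjusted p = 0.0151) that was not called without KO replicate 1 (edgeR adjusted p = 0.0553) or without WT replicate 2 (edgeR adjusted p = 0.0598).

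For the supply of cholesterol to the mitochondrion beyond Scarb1 and Star, 17 of 19 listed genes were tested. In this list 9 rose, 1 fell and 7 were not called, with a median log2 change of 1.12, while with Sertoli scaling 1 was called higher and 8 lower. Without KO replicate 1, 3 fell. Apoe, an apolipoprotein, rose by 2.51 (edgeR adjusted p = 0.000147), and Tspo, a protein of the outer mitochondrial membrane, and Dbi, its ligand, both rose by 1.92. KO replicate 3 was the highest for these 3 genes, and without it Dbi rose by 1.03, Tspo by 1.57 and Apoe by 2.24. Stard4, a soluble cholesterol carrier related to Star, fell by 2.92 on the log2 scale (edgeR adjusted p = 0.000299), with 4.31, 1.89 and 1.50 CPM in KO libraries 1 to 3, against 17.5, 18.7 and 22.2 CPM in WT libraries 1 to 3.

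Of 21 genes of LH receptor and cAMP signalling downstream of Lhcgr, 9 rose, 4 fell and 8 were not called, with a median log2 change of 0.63. With Sertoli scaling none was called higher and 9 lower, where 3.40% of all genes tested were called higher and 61.6% lower. Their summed level was 2796, 2749 and 1810 CPM in KO libraries 1 to 3, so that KO replicate 3 fell within the 1726 to 1812 CPM of WT libraries. The cAMP phosphodiesterases went both ways: Pde4d rose by 1.88 and Pde4a fell by 2.10 on the log2 scale (edgeR adjusted p = 0.000386 and 0.00028). Arrb1, a β-arrestin that turns receptors off, rose by 1.80, and Prkar2b, a regulatory subunit of protein kinase A, by 1.57.

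The list of 23 Leydig transcription factors besides Nr5a1 had 21 tested members, of which 15 rose, none fell and 6 were not called (median log2 change 1.03). However, 1 fell with RLE or library-total scaling, the filter of at least 1 CPM in 3 libraries, DESeq2, limma voom, and without KO replicate 1. With Sertoli scaling none was called higher and 2 lower. Nr0b2, a repressor of nuclear receptors, rose by 1.98, Zfpm2, a partner of GATA factors, by 1.45, Nr4a1, which acts on steroid enzyme promoters, by 1.43, and Nr2f2, a factor of interstitial progenitor cells, by 1.37. The list of hedgehog and PDGF signalling to Leydig cells also holds Igf1, Igf1r, Kitlg, Kit and Lifr, which belong to neither pathway. Among its 16 tested genes, 10 rose, 2 fell and 4 were not called (median 1.39), and with Sertoli scaling 3 were called higher and 4 lower. The count that fell was 1 without KO replicate 1, KO replicate 2 or WT replicate 1, and 0 without WT replicate 2. Kitlg, the ligand of Kit, rose by 3.50 (edgeR adjusted p = 3.25e-05), to 499, 505 and 1065 CPM in KO libraries 1 to 3, against 49.2, 63.9 and 70.2 CPM in WT libraries 1 to 3. KO replicate 3 was the highest, and without it Kitlg rose by 3.04. The hedgehog receptor Ptch1 rose by 2.23 and the PDGF receptor Pdgfra by 2.06, and Dhh, the ligand made by Sertoli cells, by 1.82.

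Genes known from adult or immature Leydig cells of mouse had 15 tested members of 20, of which 9 rose, 2 fell and 4 were not called (median 1.37). With Sertoli scaling 1 was called higher and 6 lower, and 1 fell without WT replicate 1 or 3. Prlr, the prolactin receptor, rose by 3.47 (edgeR adjusted p = 1.98e-05), with 108 ± 27.2 CPM in KO and 9.77 ± 2.93 CPM in WT (SD, n = 3 each), and its change with Sertoli scaling was 2.17. Hpgd, which inactivates prostaglandins, rose by 2.33, and the scarce Hao2, an oxidase, by 2.72. Of 8 adrenal cortex markers 2 had a row. Mc2r, the receptor for ACTH that marks the adrenal cortex, had no count in any testis library, and Dab2 rose by 1.49.

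Androgen response genes of Sertoli cells in mouse gave 6 tested members of 8, of which 3 rose, 2 fell and 1 was not called (median 0.62). With Sertoli scaling none was called higher and 2 lower. The count that fell was 0 without WT replicate 1 or 2, and 1 without KO replicate 2, KO replicate 3 or WT replicate 3. Corin, a serine protease, rose by 1.77 and Tubb3, a tubulin, by 0.82. The change of Tubb3 was −0.43 with Sertoli scaling, and it was not called without WT replicate 2 (edgeR adjusted p = 0.0782). Cldn3, a tight junction protein, fell by 1.08 on the log2 scale (edgeR adjusted p = 0.0178), a call lost without WT replicate 1 (edgeR adjusted p = 0.0571) or without WT replicate 2 (edgeR adjusted p = 0.056). Neither androgens nor their binding was measured.

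**Figure D5:**
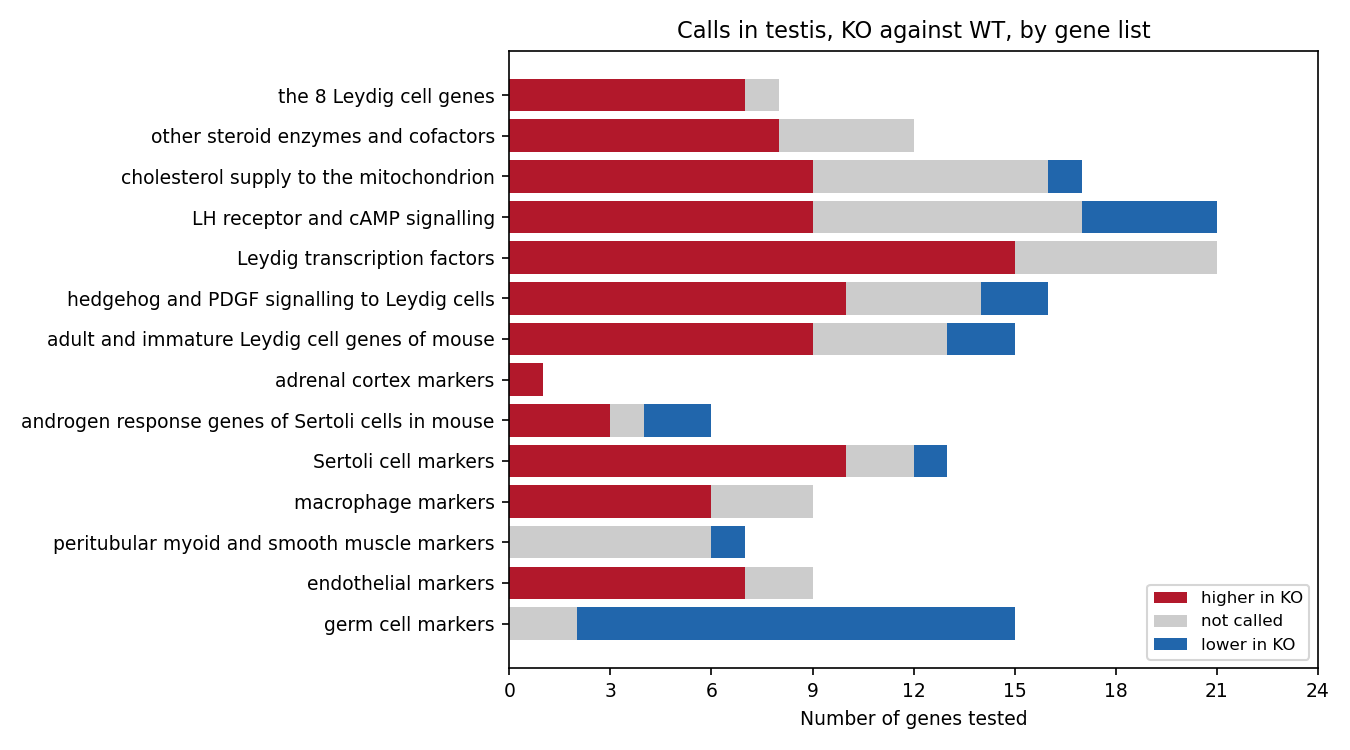
Number of tested genes of each list that were called higher (red), not called (grey) or called lower (blue) in KO testis, by edgeR at an adjusted p under 0.05 with TMM scaling. The 8 Leydig cell genes are the top bar with 7 called higher, and the germ cell markers at the bottom have 13 of 15 called lower.

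Most Sertoli, macrophage and endothelial markers rose too. Their medians are not ranked against the 2.74 of the 8 genes, which were chosen with earlier results of these data known. The lists of mouse Leydig cell genes, Leydig transcription factors and other steroid enzymes had medians of 1.37, 1.03 and 1.17. No peritubular or smooth muscle marker rose with all 6 libraries in the fit (median log2 change −0.13). The part of these other somatic cells in the result was not tested beyond the marker scalings above. No tested marker of these lists was at 0 in a library. Of 15 Sertoli cell markers, 13 were tested, 10 rose, 1 fell and 2 were not called (median log2 change 1.25). None fell in the fits without 1 library, except that 1 fell without KO replicate 1, and none fell with upper quartile scaling, the replicate block or the 2-fold minimum. Their summed level was 19867 to 26767 CPM in KO libraries, against 8945 to 9552 CPM in WT libraries. Amh, the anti-Müllerian hormone of immature Sertoli cells, rose by 2.72 and Cldn11, a tight junction protein, by 1.59. Inha rose by 1.40 (edgeR adjusted p = 0.0321), but 5 of the 6 fits without 1 library did not call it, nor did limma voom or the replicate block. It had 2304, 3375 and 597 CPM in KO libraries 1 to 3, against 863, 720 and 802 CPM in WT libraries 1 to 3. KO replicate 3 was thus below all WT libraries. Macrophage markers had 6 of 9 tested members risen and none fallen (median 1.62), at 71.1 to 109 CPM summed in KO libraries, against 28.6 to 48.7 CPM in WT libraries, with Aif1, Csf1r, Fcer1g and C1qa rising by 2.07, 1.89, 1.72 and 1.68.

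Endothelial markers had 7 of 9 risen and none fallen (median 1.33), at 107 to 164 CPM summed in KO libraries, against 43.0 to 54.7 CPM in WT libraries, with Kdr, Tie1, Cdh5 and Pecam1 rising by 1.73, 1.61, 1.61 and 1.33. With Sertoli scaling no macrophage or endothelial marker was called in either direction. Peritubular myoid and smooth muscle markers had none of 7 risen, 1 fallen and 6 not called. They summed to 618 to 931 CPM in KO libraries, against 655 to 930 CPM in WT libraries. The marker that fell was Cnn1, by 1.83 on the log2 scale. Without KO replicate 2 or with library totals 3 fell. With no filter beyond 1 count, DESeq2, limma voom or the replicate block 2 fell. Without KO replicate 3, 1 marker of this list was called higher. With Sertoli scaling all 7 were called lower, where 61.6% of all genes tested were called lower. Germ cell markers fell by the widest margins, with Piwil1, Stra8, Ddx4 and Mael at log2 changes of −7.91, −6.83, −6.59 and −6.33, and their median over the list was −4.79.

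Other genes with the most similar pattern over the 6 testis libraries were found among 11079 genes with a symbol, as the smallest root mean square difference of centred log2 CPM profiles. They were Dnaja4 for Scarb1 (0.037), Cpb1 for Star (0.209), Ddc for Cyp11a1 (0.466), Reep1 for Cyp17a1 (0.504), Rpl29 for Hsd17b3 (0.079), Kif5a for Lhcgr (0.418), Sh3rf1 for Nr5a1 (0.076) and Gpr153 for Insl3 (0.174). Sh3rf1 had the pattern of Nr5a1 with a low KO replicate 3, at 174, 162 and 65.4 CPM in KO libraries 1 to 3, against 47.1, 49.0 and 45.8 CPM in WT libraries 1 to 3. A small difference over 6 libraries describes these libraries and no more, since the candidates are many.

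Outside the testis, the same genes were looked up in 26 long RNA libraries of oocytes and embryos, 2 for each of 13 groups, with 1544198 to 11031837 gene counts each. They are KO and WT oocytes (GV and MII) and later samples whose labels run 10PEA, 1C-20PEA, 33PEA, then 54PEA, and a set called KO-MII-D321 with no WT of that name. What 1C, D321 and PEA stand for is not stated. Lhcgr, Nr5a1 and Insl3 had no count in any of the 26, which allows 0.272 to 1.94 CPM per library for 3 counts, and Hsd17b3 had 4 counts in 1 library. Scarb1 was counted in 22 libraries, Star in 21, Cyp11a1 in 17 and Cyp17a1 in 6. These libraries were made by another method than the testis libraries, so levels are not compared between them.

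None of the 4 tested genes was called at any stage by edgeR, where 0 genes in all were called at GV, MII, 10PEA and 1C-20PEA (28, 707, 266 and 1048 at an unadjusted p under 0.05, and 12, 220, 83 and 569 by DESeq2), 10.1% at 33PEA and 20.9% at 54PEA. At 33PEA, Star had 176 and 116 counts in KO libraries, against 6 and 0 counts in WT libraries (edgeR adjusted p = 0.058). Cyp11a1 had 0 and 132 counts and Cyp17a1 0 and 148 counts in the same KO libraries, against 0 and 0 counts in WT libraries for both (edgeR adjusted p = 0.0928 and 0.121). The counts of both P450 genes came from KO replicate 2 alone. Star (adjusted p = 0.000663) and Cyp11a1 (adjusted p = 0.0173) passed at 33PEA by DESeq2, as did 34.7% of all genes with an adjusted p there, and 3 of the genes had an unadjusted p under 0.05 by edgeR, as did 30.3% of all genes tested. At GV, Star was at 22.7 and 24.3 CPM in KO and 14.2 and 17.9 CPM in WT, which edgeR did not call (log2 change 0.55, SE 1.45).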

How the data were processed

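Long RNA was measured in 6 testis and 26 oocyte or embryo libraries, and the 32 small RNA samples were not used here. The authors deposited 1 count per gene and library. The submitters' processing notes name Trim Galore, TopHat, featureCounts and STAR 2.7.1a without a role for each, and the genome build and the strand setting of counting are not given in the sources used here. Per the labels' protocols, ribosomal RNA was removed before testis libraries were built. The 92 ERCC rows, and 8 lines of 1 file that name no gene, stayed out of library sizes.

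The test was the quasi-likelihood F test of edgeR 4.0.16 in R 4.3.3, after filterByExpr and TMM scaling, testis apart from oocytes and embryos, with Benjamini-Hochberg adjustment over all genes tested and a threshold of 0.05. Log2 changes are KO over WT with a standard error, and CPM uses TMM library sizes. A gene "rose" or "fell" where it passed. Ratios within a library added 0.5 count and were tested by exact permutation. Intervals for a count of 0 cover counting error only.

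The genes and lists were chosen with earlier results of these data known. Besides the 8 genes and Pld6, the named genes are the up to 4 largest called changes of each list with at least 1 CPM in the higher group, every tested other steroid enzyme, and the gene nearest in pattern to each of the 8 (at least 5 CPM). Dbi and Tspo without KO replicate 3, and Sh3rf1, were picked for mention after their values were seen. Some genes that this rule names are not reported here. Listed genes with no row of that name were not analysed here. RefSeq symbols (assembly BCM_Maur_2.0) served for names only. Other scalings, filters, DESeq2 1.42.0, limma 3.58.1 voom, a replicate block and leaving out each library were tried.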

Additional observations from a re-analysis of the deposited data

How the results depend on the processing

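Of the 8 genes, all 7 rises kept direction and call under RLE, upper quartile and library-total scaling, both other filters, DESeq2, limma voom, a 2-fold minimum and leaving out each library (members risen 7 to 7). Hsd17b3 was never called there, and its change was −0.20 without KO replicate 2 (range without 1 library −0.20 to 0.50). Scaling to Sertoli markers gave −0.0075 for Scarb1, −1.10 for Hsd17b3 and 0.13 for Nr5a1. Scaling to 4 somatic lists gave 0.060, −1.03 and 0.20 for these genes. The downward shift common to all genes comes from the scale, and the differences between genes do not. Genes called higher were then 612 and 704, genes called lower 11099 and 10781, and 1 of the 8 genes was called lower under each. Changes of other genes also turned, under Sertoli and 4-list scaling in this order: Hsd3b7 −0.32 and −0.25, Hsd17b12 −0.24 and −0.17, Fdx1 −1.19 and −1.12, Srd5a1 −0.93 and −0.86, Tubb3 −0.43 and −0.36. Fdx1 was at −0.038 with library totals and Hsd17b4 ranged from −0.95 to 0.014 without 1 library (0.014 without KO replicate 3), where the cause was not tested. Of genes called, 48.0% were higher with TMM, 42.4% with library totals (median of all genes −0.10) and 52.0% with the upper quartile (0.13). Without 1 library, 8180 to 11524 genes were called, 3584 to 5498 higher and 4596 to 6026 lower. The step differences ranged from 0.88 to 1.68 for Star over Scarb1, 0.57 to 1.66 for Cyp11a1 over Star, 0.35 to 0.65 for Cyp17a1 over Cyp11a1 and −4.48 to −3.82 for Hsd17b3 over Cyp17a1, and added counts of 0.1 or 5 changed none of their directions. In oocytes and embryos DESeq2 called 2 of the gene and stage pairs and edgeR 0.

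Same-numbered KO and WT testis libraries did not deviate together (correlations −0.02, 0.03 and −0.06). The labels do not say whether a shared number marks a shared litter or day, and these correlations cannot show it. With the replicate block 9691 genes were called (4433 higher, 5258 lower), the members risen stayed 7 and the step differences were 1.33, 1.19, 0.48 and −4.13, with sign-flip p-values of 0.25 or more.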
